A study of Rattus norvegicus with 24 samples.

Results

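The 4 transcription regulators Mybl1, Rfx2, Tbpl1 and Crem of male germ cells were followed in meiotic and haploid cells of young and aged rats. The 4 genes were taken by name, and every probe set that the platform annotation assigns to exactly 1 of these symbols was used. They had 9 probe sets among the 31042 tested (Crem 6, the others 1 each), and are 4 of the 14217 genes with such a probe set. RNA was measured on 24 Affymetrix rat arrays. The 12 animals were Brown Norway rats with no genotype or treatment named, 6 of them 4 months old (young) and 6 of them 18 months old (aged). By the animal numbers in the labels each rat gave a pachytene spermatocyte fraction and a round spermatid fraction, so 4 groups of 6 arrays resulted. Germ cells had been freed with collagenase and trypsin and separated by sedimentation, with a stated purity above 83%.

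Pachytene spermatocytes are male germ cells midway through meiotic prophase, when homologous chromosomes are paired, and after both divisions they give haploid round spermatids, which go on to build an acrosome and a tail. A-MYB, the protein of Mybl1, switches on genes of the pachytene stage, among them the piRNA machinery and cell cycle genes. RFX2 lies downstream of A-MYB and drives genes of the cilium and flagellum. TBPL1 (TRF2, TLF), a relative of the TATA-binding protein TBP, and CREM, a factor that binds cAMP response elements, act in spermatids, and male mice without either factor stop making sperm at the round spermatid stage.

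Levels are log2 signals. Age was compared within a fraction, on a scale quantile normalized within that fraction, and fractions were compared on a joint scale with a background offset on the pachytene arrays. All adjusted p-values are from limma with Benjamini-Hochberg adjustment over all 31042 probe sets, and a probe set was called at an adjusted p under 0.05. Pachytene markers were lower in round spermatids for 13 of 16 genes and round spermatid markers higher for 9 of 10. There 38.6% of all genes were lower and 49.7% higher. In pachytene spermatocytes young rats 1, 10 and 11 stood apart on the main axis of variation, and in round spermatids young rat 10 did. The median of all probe sets moved with age by 0.05 in pachytene spermatocytes and 0.00 in round spermatids, and as deposited by -0.24 and 0.14, so age differences are relative to the whole array. In bulk fractions, fewer cells of a type and less RNA per cell cannot be told apart.

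**Figure D1:**
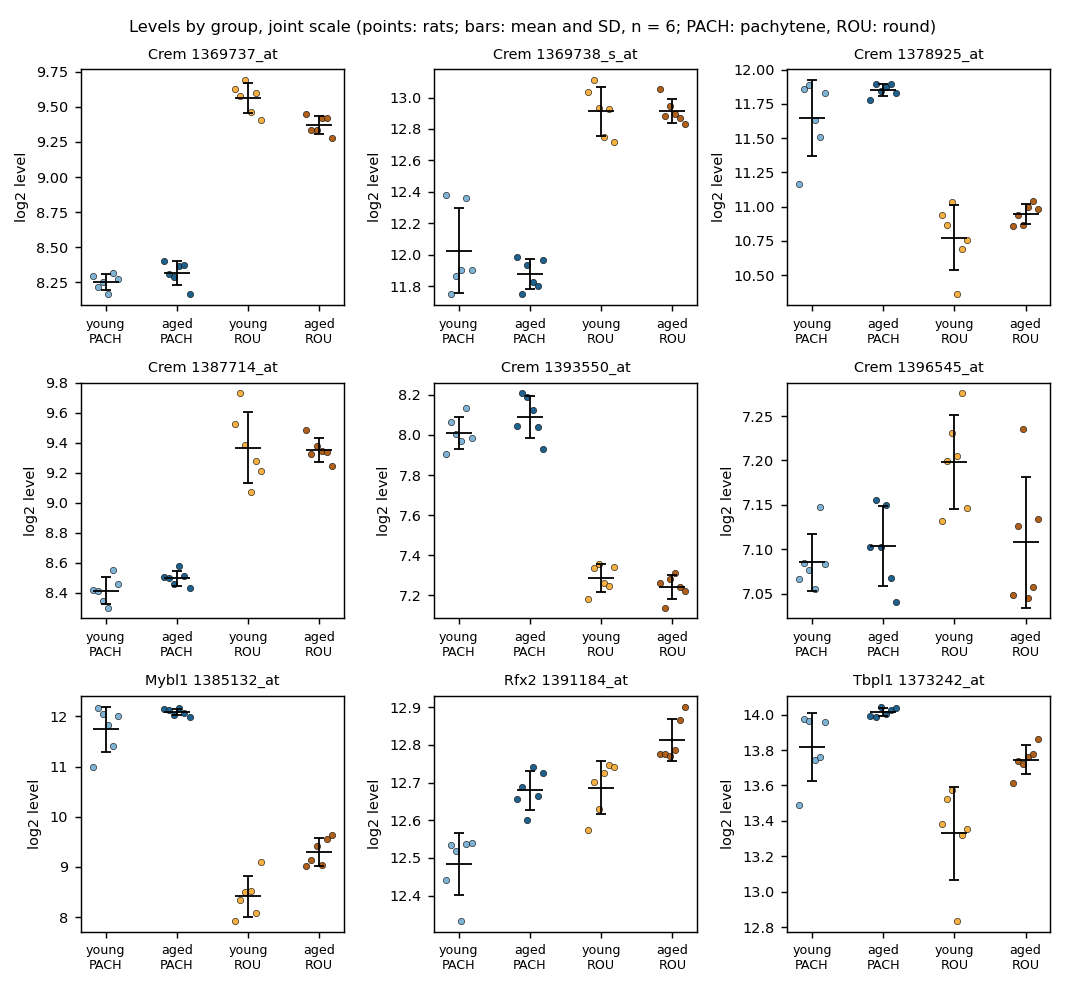
Log2 level (joint scale) of each of the 9 probe sets in the 4 groups, with a point per rat and bars for mean and SD (n = 6). Mybl1 was 10.1-fold lower in round spermatids of young rats, Rfx2 rose in small steps, and the Crem probe sets split into higher and lower ones.

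All 4 genes differed between the fractions, by very unequal amounts. Averaged over both ages, 9 of the 9 probe sets were called between round spermatids and pachytene spermatocytes, 5 higher and 4 lower in round spermatids, where 85.1% of all probe sets tested were called, 46.9% higher and 38.3% lower. In young rats 9 of 9 were called (5 higher, 4 lower) against 79.9% of all (44.8% higher, 35.0% lower). In aged rats 8 of 9 were called (4 higher, 4 lower) against 78.3% of all (42.2% higher, 36.1% lower). A called difference between fractions is thus the common state on these arrays, and the sizes below say more than the count. The median absolute difference over all probe sets was 0.27.

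Mybl1 had by far the widest difference of the 4 genes between fractions. Probe set 1385132_at (Entrez 297783) ran from 10.996 over 11.92 to 12.16 (lowest, median, highest of 6) in young pachytene spermatocytes and from 11.99 over 12.10 to 12.16 in aged ones. In round spermatids it ran from 7.92 over 8.42 to 9.09 in young rats and from 9.01 over 9.27 to 9.63 in aged rats. Every round spermatid array lay below every pachytene array, and the ages overlapped within each fraction. Mybl1 was 8.35-fold lower in round spermatids (log2 difference -3.06, SE 0.13, n = 12 arrays per fraction, limma adjusted p = 3.57e-16), and it was lower in 12 of 12 rats, by log2 differences of -3.82 to -2.36. The difference was 10.1-fold in young rats (-3.33, SE 0.18) and 6.92-fold in aged rats (-2.79, SE 0.18). The difference of the age effect between fractions did not pass (0.54, SE 0.26, limma adjusted p = 0.175), although with offset alone it was 0.72 (limma adjusted p = 0.00435).

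With age, Mybl1 rose in the round spermatid fraction, the largest age difference among the 9 probe sets. On the scale of that fraction it ran from 7.85 over 8.23 to 8.80 in young rats and from 8.72 over 8.97 to 9.33 in aged rats. Of the aged arrays 4 lay above every young array. The other two, of aged rats 2 and 8, lay below only young rat 13. The rise was 1.71-fold (log2 difference 0.77, SE 0.15, n = 6 per age, limma adjusted p = 0.005). Without young rats 1, 10 and 11 together it was 0.60 and was not called (limma adjusted p = 0.0539). In pachytene spermatocytes it ran from 11.10 over 11.93 to 12.13 in young rats and from 11.99 over 12.08 to 12.14 in aged rats, a difference of 0.30 that did not pass (SE 0.15, limma adjusted p = 0.121). Young rats 1 and 11 were the low arrays there, and without young rats 1, 10 and 11 the difference was 0.01, while with median centring it was 0.61 and called (limma adjusted p = 0.017).

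Some pachytene markers rose with age in the round spermatid fraction, as Mybl1 did. Their mean level relative to all genes, on the scale of that fraction, ran from 1.97 to 2.36 in young and from 2.44 to 2.66 in aged rats. Of 16 measured markers 8 rose with age and 0 fell there, where 12.5% of all genes rose and 12.4% fell. Of the 8, Ccna1, Ccnb1, Cdk1, Pttg1, Aurka and Plk1 are also A-MYB programme genes, and the others were Sycp3 (0.43) and Adam2 (0.25). The 8 that did not pass were Sycp1 (-0.12), Sycp2 (0.19), Spo11 (0.18), Mlh3 (-0.16), Piwil2, Tdrd1, Hspa2 and Ldhc. The part of the pachytene markers in the rise of Mybl1 was not tested.

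Rfx2 was measured by probe set 1391184_at (Entrez 301121). The 250 bases before its RefSeq start (assembly GRCr8) are shown because A-MYB is known to act on Rfx2, and its MYB words can be seen in them. Capitals mark a MYB word on either strand, that is CAACGG or else CAACTG or else TAACGG or else TAACTG, and the window is written 5′ to 3′ in the direction of the gene.
Rfx2 (chr9:1758147-1758396, minus strand): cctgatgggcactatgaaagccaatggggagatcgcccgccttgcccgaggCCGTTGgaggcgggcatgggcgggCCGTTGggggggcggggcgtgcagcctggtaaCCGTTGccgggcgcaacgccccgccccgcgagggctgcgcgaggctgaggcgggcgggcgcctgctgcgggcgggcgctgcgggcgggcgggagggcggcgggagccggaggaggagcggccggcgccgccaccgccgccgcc
The window, with 80.0% G and C, held 3 MYB words, each written CCGTTG, the reverse complement of CAACGG. They began 199, 175 and 143 bases before the start, and 24.2% of all 33469 windows of that length held at least 1 such word. The last of them overlapped GTTGCC, a word of the X-box that RFX proteins bind, which 9.89% of the windows held. A match is a run of letters and not a measured binding site. The Tbpl1 window held none of the MYB, X-box or cAMP response words searched.

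Rfx2 was high in all 4 groups and differed little between them, but in a regular order. On the joint scale it ran from 12.33 over 12.53 to 12.54 in young pachytene spermatocytes and from 12.60 over 12.68 to 12.74 in aged ones. It ran from 12.57 over 12.71 to 12.75 in young round spermatids and from 12.77 over 12.78 to 12.90 in aged ones. Young pachytene spermatocytes were lowest and aged round spermatids highest, and both stood apart from the other groups, while aged pachytene spermatocytes and young round spermatids overlapped. Rfx2 was 1.12-fold higher in round spermatids (log2 difference 0.17, SE 0.03, limma adjusted p = 4.78e-06), and higher in 12 of 12 rats.

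Rfx2 was higher in aged rats in both fractions, by small steps. Within pachytene spermatocytes it ran from 12.29 over 12.46 to 12.48 in young and from 12.53 over 12.60 to 12.66 in aged rats. Within round spermatids it ran from 12.62 over 12.77 to 12.81 in young and from 12.84 over 12.85 to 12.97 in aged rats. The ages did not overlap in either fraction, and 2 of the 9 probe sets, Rfx2 and Tbpl1, did not overlap in each of them, against 21.0% of all probe sets in pachytene spermatocytes and 7.92% in round spermatids. The rise was 1.13-fold in pachytene spermatocytes (0.18, SE 0.05, n = 6 per age, limma adjusted p = 0.013), where Rfx2 was the 1 of 9 called, against 37.5% of all probe sets (22.1% higher, 15.4% lower). As deposited that difference was 0.11 (limma adjusted p = 0.165), and without young rats 1, 10 and 11 it was 0.13 (limma adjusted p = 0.0611).

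In round spermatids 4 of the 9 probe sets were called with age, 3 higher and 1 lower, against 17.1% of all probe sets (8.65% higher, 8.48% lower). Rfx2 rose 1.10-fold there (0.13, SE 0.04, limma adjusted p = 0.0308). That call was lost without young rat 1, young rat 3, aged rat 9 or aged rat 10 (differences of 0.11 to 0.12, limma adjusted p between 0.0525 and 0.0743) and without young rats 1, 10 and 11 together (0.13, limma adjusted p = 0.111). It was also lost with a trended robust prior (0.13, limma adjusted p = 0.059) and with median centring (0.09, limma adjusted p = 0.323).

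Tbpl1 was measured by probe set 1373242_at (Entrez 689030). On the joint scale it ran from 13.49 over 13.86 to 13.98 in young pachytene spermatocytes and from 13.99 over 14.02 to 14.04 in aged ones. It ran from 12.83 over 13.37 to 13.57 in young round spermatids and from 13.62 over 13.75 to 13.86 in aged ones. Aged pachytene spermatocytes were highest and young round spermatids lowest, and young pachytene and aged round spermatids overlapped. Tbpl1 was 1.30-fold lower in round spermatids (log2 difference -0.38, SE 0.07, limma adjusted p = 1.31e-05) and lower in 12 of 12 rats. The difference was -0.48 in young rats (SE 0.09, limma adjusted p = 5.21e-05), where 4 of 6 round arrays lay below every pachytene array. It was -0.27 in aged rats (SE 0.09, limma adjusted p = 0.0112), where none overlapped. With offset and median centring neither was called (-0.18, limma adjusted p = 0.221, and -0.28, limma adjusted p = 0.0572), and with offset alone the difference in aged rats was not (-0.16, limma adjusted p = 0.207). The groups of young rats did not overlap for 7 of the 9 probe sets, all but Tbpl1 and Crem 1396545_at, against 59.0% of all. Those of aged rats did not for 8, all but Crem 1396545_at, against 66.6%.

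With age Tbpl1 rose in round spermatids. Within that fraction it ran from 12.90 over 13.43 to 13.63 in young rats and from 13.68 over 13.81 to 13.91 in aged rats, so the ages did not overlap and young rat 10 was far the lowest. The rise was 1.33-fold (log2 difference 0.41, SE 0.10, n = 6 per age, limma adjusted p = 0.0119). Without young rat 10 it was 0.30, without young rats 1, 10 and 11 it was 0.25 (limma adjusted p = 0.0282), and with median centring 0.33 (limma adjusted p = 0.176). In pachytene spermatocytes the values ran from 13.42 over 13.80 to 13.91 in young rats and from 13.92 over 13.95 to 13.98 in aged rats, and did not overlap by a narrow margin. That difference of 0.20 did not pass (SE 0.08, limma adjusted p = 0.0591). It was called without young rat 2, young rat 3 or young rat 13 (limma adjusted p between 0.0345 and 0.0414), without the 40% dimmest probe sets (0.0489), as deposited (0.0394), with hybridization control centring (0.0179) and with median centring, where it was 0.59 (0.00308). Without young rats 1, 10 and 11 it was 0.04.

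**Figure D2:**
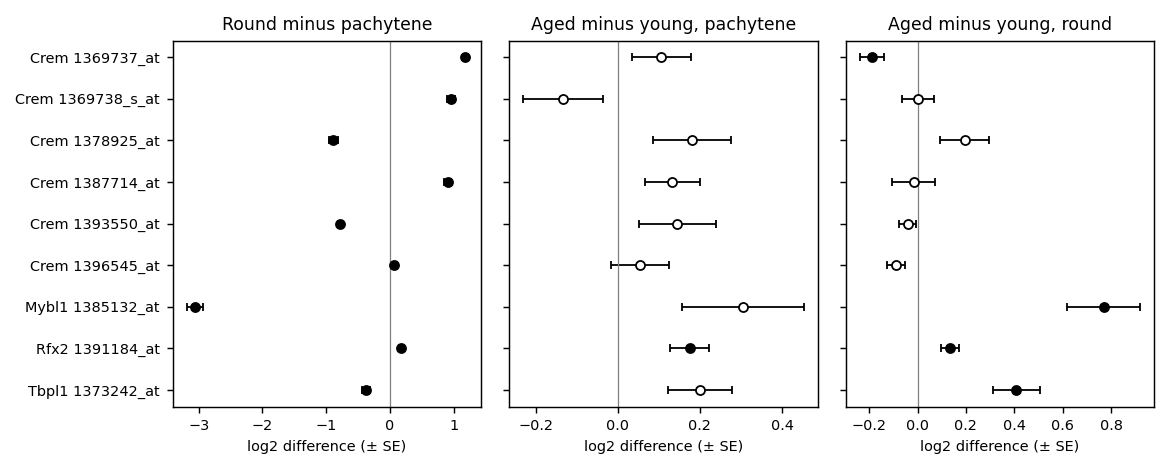
Log2 difference with SE for the 9 probe sets between round and pachytene fractions and with age in each fraction, filled where called (limma adjusted p under 0.05) and open where not. With age the filled points are Rfx2 in pachytene spermatocytes and Mybl1, Tbpl1, Rfx2 and Crem 1369737_at in round spermatids.

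Crem (Entrez 25620) makes both activators and repressors from several promoters and by splicing. An internal promoter with cAMP response elements is known to give the repressor ICER. RefSeq (assembly GRCr8) gave 3 start windows, all on the plus strand. Windows 2 and 3 are shown because both hold the complete cAMP response element TGACGTCA, in capitals and written 5′ to 3′, and because the 6 Crem probe sets did not move together.
Crem window 2 (chr17:58984547-58984796, plus strand): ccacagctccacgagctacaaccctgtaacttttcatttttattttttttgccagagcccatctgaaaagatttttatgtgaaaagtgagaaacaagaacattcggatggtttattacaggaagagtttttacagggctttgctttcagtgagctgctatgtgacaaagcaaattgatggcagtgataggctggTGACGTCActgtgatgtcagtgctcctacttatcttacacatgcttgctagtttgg
Crem window 3 (chr17:58985240-58985489, plus strand): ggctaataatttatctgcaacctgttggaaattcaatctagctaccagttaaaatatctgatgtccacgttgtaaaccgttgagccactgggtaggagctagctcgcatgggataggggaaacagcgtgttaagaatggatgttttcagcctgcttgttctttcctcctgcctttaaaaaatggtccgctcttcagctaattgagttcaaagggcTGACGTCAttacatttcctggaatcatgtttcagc
The element began 56 bases before the start in window 2 and 35 bases before it in window 3, and 1.59% of all windows held it. Window 1 held only the shorter word TGACG, 2 times, which on either strand is found in 18.2% of windows. Window 3 also held 2 MYB words. The sources used here do not say which window or transcript each probe set reads.

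Of the 6 Crem probe sets, 3 were clearly higher in round spermatids, 2 were lower, and 1 was nearly level. The brightest, 1369738_s_at, ran from 11.75 over 11.91 to 12.38 in young pachytene spermatocytes and from 11.75 over 11.88 to 11.98 in aged ones. It ran from 12.72 over 12.93 to 13.11 in young round spermatids and from 12.83 over 12.89 to 13.05 in aged ones. The fractions did not overlap at either age, and the ages overlapped in both fractions. It was 1.95-fold higher in round spermatids (log2 difference 0.96, SE 0.07, limma adjusted p = 2.7e-12). The suffix of its name marks a probe set that can match more than a single transcript.

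Probe set 1369737_at ran from 8.17 over 8.27 to 8.32 in young and from 8.17 over 8.34 to 8.41 in aged pachytene spermatocytes, and from 9.40 over 9.59 to 9.69 in young and from 9.28 over 9.38 to 9.45 in aged round spermatids. It was 2.26-fold higher in round spermatids (1.18, SE 0.03, limma adjusted p = 2.23e-19). Probe set 1387714_at was 1.87-fold higher (0.90, SE 0.05, limma adjusted p = 1.32e-13), with medians of 8.42 (young) and 8.50 (aged) in pachytene spermatocytes and of 9.33 and 9.34 in round spermatids. For both, every round array lay above every pachytene array of the same age, and each was higher in 12 of 12 rats.

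The opposite pattern was seen at 1378925_at and 1393550_at. Probe set 1378925_at ran from 11.17 over 11.73 to 11.89 in young pachytene spermatocytes and from 11.78 over 11.86 to 11.90 in aged ones. It ran from 10.36 over 10.81 to 11.03 in young round spermatids and from 10.86 over 10.96 to 11.04 in aged ones. It was 1.85-fold lower in round spermatids (-0.89, SE 0.07, limma adjusted p = 7.67e-11), in 12 of 12 rats and with no overlap between fractions at either age. Probe set 1393550_at was lower (log2 difference -0.79, SE 0.03, limma adjusted p = 2e-16), with medians of 7.99 (young) and 8.08 (aged) in pachytene spermatocytes and of 7.30 and 7.25 in round spermatids. The dim 1396545_at differed by 0.06 (SE 0.02, limma adjusted p = 0.0191), was higher in 8 rats and lower in 4, and was not called in aged rats (0.00, SE 0.03, limma adjusted p = 0.899). As deposited, 1396545_at lay between 7.13 and 7.44 and 1393550_at between 7.14 and 7.48 in round spermatids, where an absent control had a mean of 6.83. In pachytene spermatocytes, where that control had a mean of 4.28, 1396545_at lay between 5.05 and 5.82. So close to the control in round spermatids, no fold is given for either.

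With age no Crem probe set was called in pachytene spermatocytes, where the 6 differences lay between -0.13 and 0.18. That depended on the scaling. As deposited 1369737_at (-0.32), 1387714_at (-0.30), 1393550_at (-0.27) and 1396545_at (-0.24) were lower in aged rats and called. The median of all probe sets also moved by -0.24 under that scaling, so these values lie near the shift of the whole array. With median centring 1378925_at was higher (0.49) and called, as 1387714_at was without young rat 11 (0.18). In round spermatids 1369737_at fell. Within that fraction it ran from 9.10 over 9.29 to 9.39 in young rats and from 8.98 over 9.07 to 9.14 in aged rats, and 3 aged arrays lay below every young array. The fall was 1.14-fold (log2 difference -0.19, SE 0.05, n = 6 per age, limma adjusted p = 0.0172). It was 0.02 as deposited and 0.06 with hybridization control centring, both in the other direction, while with median centring it was -0.12 (limma adjusted p = 0.444) and without young rats 1, 10 and 11 it was -0.19 (limma adjusted p = 0.0887). The other five Crem probe sets differed by -0.09 to 0.19 there and were not called, although as deposited and with hybridization control centring 1378925_at was (0.44 and 0.48), and without aged rat 5 so was 1396545_at (-0.11). The brightest, 1369738_s_at, differed by 0.00 (SE 0.06).

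For 1369737_at the age difference in round spermatids minus that in pachytene spermatocytes was -0.25 (SE 0.07, limma adjusted p = 0.014), on the joint scale. It was the 1 of 9 called in that comparison, against 13% of all probe sets (5.98% higher, 7.04% lower). With offset and median centring it was -0.10 (limma adjusted p = 0.489). With offset alone it was 0.26 (limma adjusted p = 0.0479), and without young rats 1, 10 and 11 it was -0.26 (limma adjusted p = 0.0554).

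**Figure D3:**
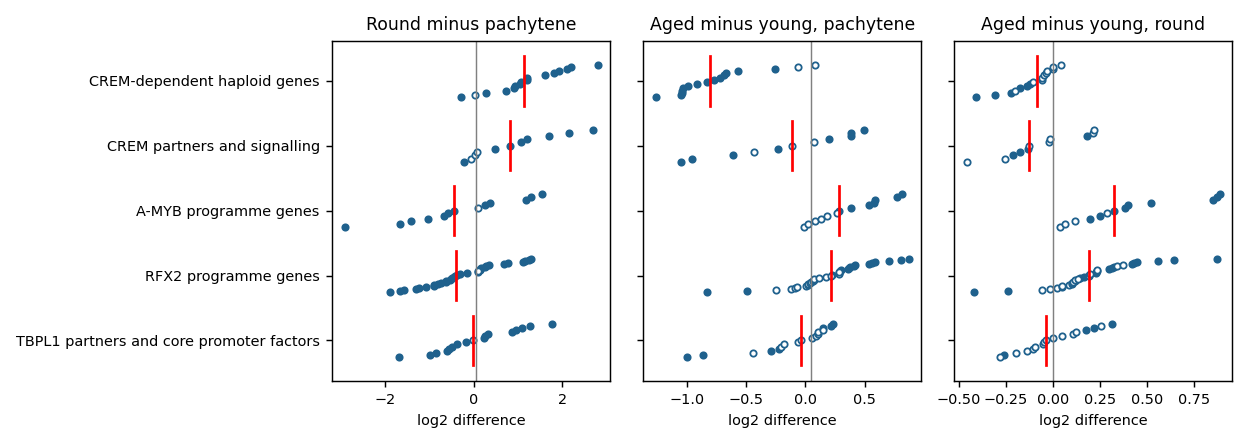
Log2 difference of each measured gene of 5 lists between round and pachytene fractions and with age in each fraction, filled where called, with the list median as a red bar and the median of all genes as a grey line. The haploid genes of CREM lay to the right between fractions (median 1.13) and to the left with age in pachytene spermatocytes (median -0.80).

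Genes known to be driven by A-MYB, RFX2 and CREM were taken as lists, as were partners of CREM and of TBPL1. No list of genes driven by TBPL1 was used. The lists were chosen with earlier results known, with a gene represented by its brightest probe set. Of all 14217 genes 49.7% were higher and 38.6% lower in round spermatids (median 0.06). Of 13 measured genes of the A-MYB programme 5 were higher and 7 lower in round spermatids (median -0.44). Tdrd1 (7.46-fold) and Tdrd12 (2.67-fold), both Tudor proteins of the piRNA pathway, and Ddx39a (3.14-fold), an RNA helicase, were lower, as Mybl1 was. Mov10l1, also of the piRNA pathway, was 1.21-fold higher. Ccnb1 (2.90-fold higher), a cyclin of cell division, rose.

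With age, 7 of the 13 A-MYB genes rose in pachytene spermatocytes and 0 fell (median 0.29), where 25.5% of all genes rose and 18.9% fell (median 0.05). Plk1 (log2 difference 0.58) and Aurka (0.78), kinases of cell division, Cdk1 (0.81) and Mov10l1 (0.58), the helicase that starts piRNA production, had the smallest p, and as deposited Mov10l1 was not called (0.17). In round spermatids 9 of 13 rose and 0 fell (median 0.32), where 12.5% of all genes rose and 12.4% fell (median -0.00). Cdk1 (1.80-fold), Pttg1 (1.83-fold), the securin that holds back chromosome separation, Aurka (1.85-fold) and Ddx39a (1.19-fold) led there. Without young rats 1, 10 and 11 the count was 8 in pachytene and 6 in round spermatids, and with the scalings tried it lay between 4 and 13. Calls over all probe sets moved with the settings too, between 7656 and 19153 in pachytene and between 1716 and 17172 in round spermatids. Several of the A-MYB genes also stand on the pachytene marker list whose level is given with Mybl1. Of 18 listed genes with a promoter window, 9 (50.0%) held a MYB word, as 25.5% of all genes did. They include Piwil1, Mov10l1, Mael and Cdk1. The word was not particular to this list, since 15 of 35 RFX2 programme genes (42.9%) held it too.

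RFX2 genes, which build the cilium and flagellum, were split. Of 34 measured, 13 were higher and 20 lower in round spermatids (median -0.39), where 49.7% of all genes were higher and 38.6% lower. Ift27 (1.60-fold higher) and Ift20 (2.44-fold lower), both of intraflagellar transport, and Dync2li1 (1.67-fold lower) and Dync2h1 (2.34-fold lower), subunits of the dynein that runs back along the axoneme, had the smallest p. With age 15 rose and 2 fell in pachytene spermatocytes (median 0.22), where 25.5% of all genes rose and 18.9% fell. Among those that rose were Dnaaf3 (log2 difference 0.36), an assembly factor of axonemal dynein, Bbs4 (0.59), a subunit of the BBSome, and Ccdc40 (0.87), which sets the axoneme's repeat. As deposited Dnaaf3 was not called (0.10). In round spermatids 15 rose and 2 fell (median 0.19), where 12.5% of all genes rose and 12.4% fell. Among those that rose were Bbs1 (1.56-fold), Zmynd10 (1.83-fold), a dynein assembly factor, Dync2h1 (1.24-fold) and Ift46 (1.47-fold). The counts of RFX2 genes with age moved with the rats in the fit. Without young rats 1, 10 and 11 they were 8 and 0 in pachytene and 5 and 0 in round spermatids. The 15 that rose in round spermatids became 9 without young rat 11, aged rat 3 or aged rat 8, 8 without young rat 13, 7 without aged rat 9 and 6 without aged rat 10. With the scalings tried they lay between 7 and 28. As stated for the A-MYB genes, calls over all probe sets moved with these settings too. GTTGCC on either strand stood in the windows of 13 of 35 listed genes in the table (37.1%), as in 10.8% of all genes. The complete X-box searched, GTTNCC followed after 0 to 3 bases by GGNAAC, stood in none of the 35 and in 0.75% of all genes.

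CREM-dependent haploid genes were high in round spermatids. Of 16 measured, 14 were higher and 1 lower (median 1.13), where 49.7% of all genes were higher and 38.6% lower. Ace (6.98-fold), whose testis form is made in spermatids, Cyp51 (3.81-fold) of sterol synthesis, Gapdhs (3.06-fold), the sperm glycolytic enzyme, and Hils1 (2.29-fold), a spermatid histone, had the smallest p. With age 14 of 16 fell in pachytene spermatocytes and 0 rose (median -0.80), where 18.9% of all genes fell and 25.5% rose. Among the 14 were Hils1 (1.88-fold), Odf1 (1.59-fold) and Oaz3 (1.60-fold) of the sperm tail and Smcp (1.71-fold) of the sperm mitochondrial capsule. The count of 14 became 8 with median centring, under which Odf1 (-0.33, limma adjusted p = 0.0588) and Oaz3 (-0.33, limma adjusted p = 0.0555) were not called, and 10 without young rats 1, 10 and 11. In round spermatids 6 fell and 0 rose (median -0.08), where 12.4% of all genes fell and 12.5% rose. Ace (1.33-fold), Akap4 (1.13-fold), Cyp51 (1.24-fold) and Hils1 (1.09-fold) led there. The count of 6 became 1 without those young rats, 0 with hybridization control centring and 14 with median centring. As stated for the A-MYB genes, calls over all probe sets moved with the setting too. Of the 16, Prm1 (brightest of all probe sets on all 12 round arrays) and Odf1 (rank 4 or 5 there) were held at a difference of 0 by quantile normalization. As deposited they differed by -0.04 and -0.07, not called, and with median centring by -0.17 and -0.21, both called. The complete cAMP response element stood in the windows of 1 of 16 listed genes (6.25%), Tnp1, in 2 of 35 RFX2 programme genes (5.71%), Spag6 and Spag6l, and in 1.78% of all genes. The shorter word stood in 5 (31.3%, against 20.0% of all genes), those of Tnp1, Ldhc, Cyp51, Hspa1l and Spata18.

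**Figure D4:**
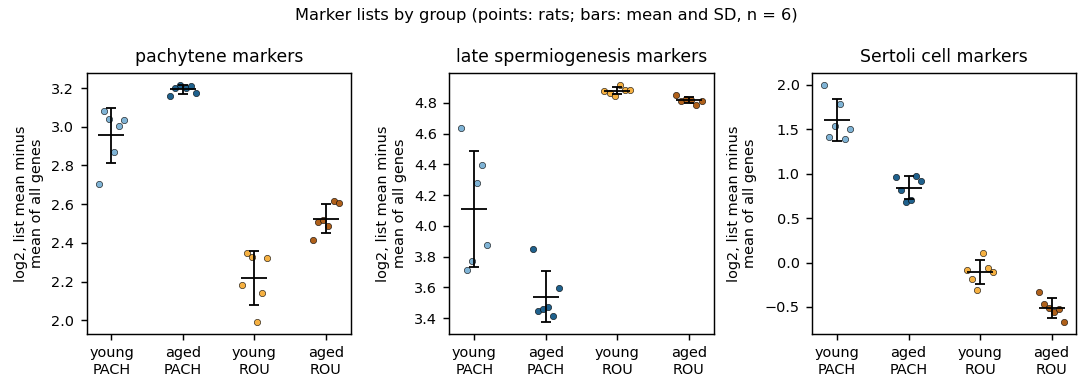
Mean log2 level of pachytene, late spermiogenesis and Sertoli cell markers relative to the mean of all genes (joint scale), with a point per rat and bars for mean and SD (n = 6). Late spermiogenesis markers were highest among pachytene arrays in young rats 1, 10 and 11, and Sertoli cell markers were lower in aged rats in both fractions.

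Markers of other cells moved with these groups. Late spermiogenesis markers, many of them the same genes as the CREM list, fell with age in pachytene spermatocytes (13 of 19 lower, 2 higher). On the scale within that fraction, not the joint scale of the figure, their level was 4.21 to 5.08 in young and 3.91 to 4.34 in aged rats. Sertoli cell markers, of the somatic cells that nurse the germ cells, fell in both fractions (16 of 18 in pachytene and 10 of 18 in round spermatids, 0 higher). Their level, on the scale within each fraction, was 1.71 to 2.36 in young and 0.95 to 1.30 in aged pachytene spermatocytes. In round spermatids it was -0.35 to 0.06 in young and -0.67 to -0.37 in aged rats. Round spermatid markers were lower with age in pachytene spermatocytes for 5 of 10 and higher for 1 (median -0.54). Between fractions, Sertoli cell markers were lower in round spermatids for 16 of 18 (median -1.17), where 38.6% of all genes were lower and 49.7% higher. Macrophage markers were higher there for 13 of 14 and lower for 0 (median 0.81), and peritubular markers higher for 8 of 11 and lower for 2 (median 0.36). The part of these markers in the differences of the regulators and lists, with age or between fractions, was not tested.

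Of 11 measured partners and signalling genes of CREM, 7 were higher and 1 lower in round spermatids (median 0.83), where 49.7% of all genes were higher and 38.6% lower (median 0.06). The smallest p were those of Adcy10 (3.24-fold), the bicarbonate-sensing adenylyl cyclase of sperm, Adcy3 (1.78-fold), another cyclase, Pde4a (2.09-fold), which breaks down cAMP, and Crebbp (2.29-fold), a coactivator. With age 4 rose and 4 fell in pachytene spermatocytes (median -0.12), where 25.5% of all genes rose and 18.9% fell. Prkaca (1.41-fold) and Pde4a (1.30-fold) were higher, and Prkacb (1.53-fold) and Crebbp (1.18-fold) lower. In round spermatids 1 rose and 3 fell (median -0.13), where 12.5% of all genes rose and 12.4% fell. There Pde4a (1.16-fold), Adcy10 (1.13-fold) and Adcy3 (1.10-fold) were lower and Pde4d (1.13-fold) higher, and without young rats 1, 10 and 11 none was called. As deposited and with hybridization control centring Pde4a and Adcy3 were instead higher (0.05 and 0.07, and 0.09 and 0.11), not called. Leaving out any 1 of 9 of the 12 rats ended the call of Adcy3, as it did that of Pde4d. As deposited the pachytene rises of Prkaca and Pde4a were not called either.

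Core promoter factors, with which TBPL1 works, were split. Of 17 measured, 8 were higher and 8 lower in round spermatids (median -0.00), where 49.7% of all genes were higher and 38.6% lower. Gtf2a1 (1.79-fold lower), a TFIIA subunit, Gtf2b (1.99-fold lower) and Gtf2e1 (1.47-fold lower) fell, and Taf12 (1.83-fold higher), a TFIID subunit, rose. With age 3 rose and 4 fell in pachytene spermatocytes, close to the 25.5% of all genes that rose and the 18.9% that fell. Taf1 (1.82-fold) and Taf7l (2.00-fold) of TFIID and Gtf2e2 (1.16-fold) were lower and Tbp (1.17-fold) higher. With median centring Gtf2e2 was instead higher by 0.06. Leaving out 1 rat at a time, 0 to 3 rose and 2 to 5 fell, and without young rat 10 neither Tbp nor Gtf2e2 was called. In round spermatids 3 rose and 1 fell, where 12.5% of all genes rose and 12.4% fell. Taf9 (1.16-fold), Tbp (1.24-fold) and Taf13 (1.13-fold) were higher and Taf10 (1.20-fold) lower. Without young rats 1, 10 and 11 none was called.

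Relatives of the 4 regulators did not share a direction between fractions. Of 15 measured, 8 were higher and 7 lower in round spermatids, where 49.7% of all genes were higher and 38.6% lower. In the CREB family Creb1 (1.84) and Creb3l4 (0.51) were higher, and Atf1 (-1.43), Crebl2 (-0.65) and Creb3 (-0.34) lower. Among RFX genes Rfx1 (2.19), Rfxank (1.06), Rfx7 (0.84) and Rfx3 (0.22) were higher, and Rfxap (-1.37), Rfx4 (-1.10) and Rfx5 (-0.61) lower. In the MYB family Mybl2 was higher (0.47), as was Myb (0.10), which with offset alone was -0.04, and Tbp was lower (-0.37), as Tbpl1 was (-0.38).

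The genes whose patterns over the 24 arrays lay nearest to each regulator were found by the root mean square difference of mean-centred log2 profiles, over 13979 other genes. Usp32, Mllt10 and Brd10 lay nearest to Mybl1 (0.14, 0.16 and 0.23, against a median of 1.63 over all genes). Nup62, Cactin and Mob2 lay nearest to Rfx2 (0.05, 0.06 and 0.06, median 0.27), and Bcap29, Dnttip1 and Yeats4 to Tbpl1 (0.05, 0.07 and 0.07, median 0.38). C2h1orf56, Ormdl2 and Idh1 lay nearest to Crem 1369738_s_at (0.08, 0.09 and 0.10, median 0.51). Usp32 was -3.15 between fractions and 0.87 with age in round spermatids, and Mybl1 was -3.06 and 0.77. That closeness follows from the choice by likeness over the same arrays.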

How the data were processed

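The deposited table holds log2 values of 31099 probe sets on 24 arrays. The program by which the authors summarised the probes, and the build it used, are not given in the sources used here. After leaving out 57 control probe sets, age was tested within each fraction on quantile normalized values. For comparisons of fractions an offset of 90.3 was added to the linear pachytene values, a step taken over from earlier results on these data. Its size was fitted by least squares so that 45 control probe sets matched between fractions. Their mean round minus pachytene difference went from 0.61 ± 0.77 to -0.03 ± 0.17 (SD over those controls). That change comes from the fit itself and is no separate check. All 24 arrays were then quantile normalized and fitted as 4 group means. Tests were limma 3.58.1 in R 4.3.3 (lmFit, eBayes), with Benjamini-Hochberg adjustment and a threshold of 0.05, and were tried on simulated data. The median level of an array lay between 6.62 and 7.38 in pachytene spermatocytes and between 7.56 and 7.86 in round spermatids, and the number of rats limits the precision.

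The platform annotation gave 1 symbol to 20826 probe sets, several to 436 and none to 9780. Promoter windows are RefSeq's, assembly GRCr8, matched by symbol. Of the 4 genes 3 had an entry. Rat numbers in the labels pair the fractions. Deviations from the group means correlated between the fractions of the same rat at -0.08 to 0.38, and for 6 of 12 rats that correlation was the highest within the age.

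Named were all probe sets of the 4 genes, the 3 genes most like each (symbols starting with LOC, RGD or MGC left out), up to 4 genes of a list with the smallest p, and any relative or other germ cell regulator. Some further list genes were named to show the rest of a list, such as pachytene markers with age and Mov10l1 between fractions. The genes, lists, tests and alternatives were chosen with earlier results of these data known. The settings for the lists were chosen after their values were seen.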

Additional observations from a re-analysis of the deposited data

Results flagged for a closer look

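Crem 1396545_at in young pachytene spermatocytes was 5.51 in rat 11 and 5.23 to 5.32 in the other five, a gap of 0.68 of the range, beyond Dixon's limit. Tbpl1 in young round spermatids was 12.90 in rat 10 and 13.38 to 13.63 in the other five, a gap of 0.66 of the range. Of 36 groups of 6 arrays 2 held such an array, and chance gives about 1 in 20 groups. Crem 1369737_at had an age difference that was lower in round spermatids than in pachytene spermatocytes by the test of the difference (-0.25, limma adjusted p = 0.014).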

How the results depend on the processing

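Of the 9 probe sets, 1 was called with age in pachytene spermatocytes. The number was 4 with median centring, 5 as deposited, 2 with hybridization control centring, 2 without the 40% dimmest probe sets, 0 without young rats 1, 10 and 11, and 1 to 2 leaving out 1 rat. In round spermatids it was 4, and 1 with median centring, 1 without young rats 1, 10 and 11, and 3 to 5 leaving out 1 rat. For the difference of the age effect it was 1, and 2 with offset and median centring, 4 with offset alone, 0 without those young rats, and 1 leaving out 1 rat. Between fractions it lay between 8 and 9 under all settings run. With a replicate block the counts were 1, 4 and 9 (age in pachytene, age in round, fractions), and the block changed no call. Between fractions the block was the rat. For age each rat has only 1 array per fraction, so the block there was a replicate number shared between ages, which joins different animals. Over all 31042 probe sets the count with age in pachytene spermatocytes lay between 7656 and 19153 (11631 as reported). In round spermatids it lay between 1716 and 17172 (5316), and for the difference of the age effect between 2295 and 25120 (4042). The general share of called probe sets thus moved widely with the setting too. It is not given here setting by setting, so a higher count among the 9 need not exceed that share.

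Directions of called values, or of values called under the other setting, turned as follows, and the cause was not tested. With age in pachytene spermatocytes as deposited, Crem 1369737_at was -0.32, 1387714_at -0.30, 1393550_at -0.27 and 1396545_at -0.24, and with median centring Gtf2e2 was 0.061. The median of all probe sets moved there by -0.24 as deposited and by 0.13 with median centring. With age in round spermatids as deposited, Crem 1369737_at was 0.018, Pde4a 0.047 and Adcy3 0.068, and with hybridization control centring 0.057, 0.086 and 0.11. The median of all probe sets moved by 0.14 and 0.18 under these scalings. For the difference of the age effect with offset alone, Crem 1369737_at was 0.26, 1387714_at 0.41 and 1393550_at 0.28. Between fractions with offset and median centring Ctcf was -0.29, Hsf1 -0.40 and E2f4 -0.21, and with offset alone Ctcf was -0.35, Hsf1 -0.46, E2f4 -0.27 and Myb -0.043.

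Values of the 9 probe sets that were called under neither setting turned too, so their sign carries no order. With age in pachytene spermatocytes and hybridization control centring, Crem 1369737_at was -0.20, 1387714_at -0.18, 1393550_at -0.15 and 1396545_at -0.12. Crem 1369738_s_at was 0.17 with median centring and 0.034 without young rats 1, 10 and 11, and 1378925_at -0.0043 without them. In round spermatids as deposited, 1387714_at was 0.18, 1393550_at 0.096 and 1396545_at 0.048, and with hybridization control centring 0.21, 0.14 and 0.087. There 1369738_s_at was -0.049 with median centring, -0.0058 without those young rats and -0.038 to 0.043 leaving out 1 rat, and 1387714_at was 0.041 with median centring and -0.076 to 0.057 leaving out 1 rat. For the difference of the age effect with offset and median centring, Tbpl1 was -0.11, Crem 1369738_s_at -0.070 and 1387714_at 0.052. With offset alone Rfx2 was 0.12, Crem 1396545_at 0.12 and 1378925_at 0.33. Without those young rats Crem 1369738_s_at was -0.044 and 1378925_at 0.067, and leaving out 1 rat 1378925_at was -0.11 to 0.097. Between fractions of aged rats 1396545_at was -0.021 to 0.027 leaving out 1 rat. In round spermatids Crem 1393550_at and 1396545_at lay near an absent control, which limits what can be seen of them.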

Other observations

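Other transcription regulators of germ cells were also measured, and they went both ways between fractions. Of 22 measured, 14 were higher and 8 lower in round spermatids, where 49.7% of all genes were higher and 38.6% lower. Sox6 (4.20-fold), Hsf2 (3.46-fold), a heat shock factor, Taf7l (log2 difference 1.76), the germ cell form of a TFIID subunit, Rara (2.39-fold), a retinoic acid receptor, and Atf2 (2.36-fold) were higher. Yy1 (6.51-fold), Atf4 (2.07-fold), Sp1 (1.77-fold) and Tcfl5 (1.48-fold) were lower. Ctcf (0.23), Hsf1 (0.13) and E2f4 (0.33), on the log2 scale, were called higher but turned lower with offset and median centring and with offset alone. With age 7 rose and 3 fell in pachytene spermatocytes, where 25.5% of all genes rose and 18.9% fell. In round spermatids 1 rose and 5 fell, where 12.5% of all genes rose and 12.4% fell.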
